A study of Mus musculus with 12 samples.

Results

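Jund, Sox4, Psip1, Smtnl2 and Nsmce4a are the 5 genes with the smallest p-values between Tet1 mutant and control mice at 4 days after a demyelinating lesion of the spinal cord, among 31109 genes tested and 54838 genes in the count tables. The genotype difference at that time chose them, so it is given here only as a description of the libraries that chose them, without a test. The comparison of the genotypes in unlesioned tissue takes its means from the other 6 libraries and depends least on the choice, but it is not independent of it. The same fit over all 12 libraries gave the spread for both comparisons, and the unlesioned tissue came from the side of the cord opposite the lesion.

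RNA was sequenced from spinal cords of adult mice at postnatal day 60 (P60) in 4 groups of 3 libraries. Control mice were Olig1+/+;Tet1fl/fl and Tet1 mutants were Olig1cre/+;Tet1fl/fl, so both genotypes carried floxed Tet1 alleles and only the mutants carried Cre, expressed from 1 Olig1 allele in cells of the oligodendrocyte lineage. Lysolecithin (LPC), a detergent-like lipid that strips myelin, was injected into the white matter, and the lesioned tissue was taken 4 days later (4dpl), while the unlesioned tissue came from the opposite side of the cord. Cell suspensions were enriched for oligodendroglia on a Percoll density gradient and were not sorted, so the libraries also hold RNA of other cells, and in such bulk samples fewer cells of a type and less RNA per cell cannot be told apart. The study's methods give 3 biological replicates of spinal cord RNA per condition. The labels do not say which mouse each library came from, so p-values measure only the spread between these libraries.

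The 5 genes belong to different machineries of the nucleus and the cytoskeleton. JunD is a subunit of AP-1, the dimeric transcription factor of JUN and FOS proteins, and is the JUN protein found in many resting cells. SOX4 belongs with SOX11 and SOX12 to the SoxC transcription factors, which are known from progenitor cells, and SOX4 in oligodendrocyte progenitors has been linked to holding back differentiation. Psip1 encodes LEDGF, a chromatin reader that tethers other proteins to transcribed genes and that forms a complex with menin (Men1) and the histone methyltransferase MLL (Kmt2a), while menin also binds JunD. Smtnl2 encodes a smoothelin-like protein with a calponin homology domain that is a substrate of JNK kinases, and Nsmce4a encodes a subunit of the SMC5/6 complex, which acts in DNA repair and chromosome maintenance. TET1 is the enzyme that oxidises 5-methylcytosine, which in mammals lies mostly in CG dinucleotides.

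In the GRCm38 annotation used for counting, Jund lies on chr8:70698949-70700616 on the plus strand and Sox4 on chr13:28948919-28953713 on the minus strand, and each is a gene of 1 exon. Psip1 lies on chr4:83455680-83486459, Smtnl2 on chr11:72389164-72411713 and Nsmce4a on chr7:130532526-130573118, all on the minus strand, with 16, 8 and 11 exons in their longest protein-coding transcripts. Of the exonic bases, 877 of Jund (52.6%) also belong to the opposite-strand gene Gm11175, 2616 of Sox4 (54.6%) to the opposite-strand gene Gm26735 and 483 of Psip1 (9.5%) to the opposite-strand gene Snapc3. Whether reads were counted by strand is not given in the sources used here, so reads of these bases cannot be told apart, and the levels of Jund and Sox4 carry that limit throughout. Gm11175 had 0 counts in all 12 libraries and Gm26735 reached at most 0.0782 CPM, counts per 1000000 counts of a library after scaling. Snapc3 had group means of 14.8 to 20.7 CPM and a log2 difference between genotypes of 0.14 (SE 0.23) at 4dpl. Nsmce4a lies inside the span of Fgfr2 on the same strand, with 0 exonic bases in common. Fgfr2 had 111 ± 19.3 CPM in control and 236 ± 142 CPM in mutant 4dpl libraries (SD, n = 3 each). Its log2 difference there was 1.09 (SE 0.47, adjusted p = 0.65 in edgeR's test).

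RefSeq promoter windows of 300 bases, from 250 before to 50 after the transcription start (GRCm38.p6), were given for 4 of the 5 genes, and the one for Psip1 was not among them. The bases upstream of the start are shown for the pair whose RefSeq and counted starts lie within 14 bases of each other, with CG dinucleotides, the substrate context of TET1, in capitals. Sox4 is shown over chr13:28953714-28953949 on the minus strand, 236 bases with 10 CG, and Smtnl2 over chr11:72411714-72411963 on the minus strand, 250 bases with 17 CG.
Sox4: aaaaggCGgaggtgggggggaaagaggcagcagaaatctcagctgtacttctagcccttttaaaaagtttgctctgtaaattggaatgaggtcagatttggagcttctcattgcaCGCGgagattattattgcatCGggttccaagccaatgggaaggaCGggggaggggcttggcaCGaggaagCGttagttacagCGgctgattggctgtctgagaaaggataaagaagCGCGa
Smtnl2: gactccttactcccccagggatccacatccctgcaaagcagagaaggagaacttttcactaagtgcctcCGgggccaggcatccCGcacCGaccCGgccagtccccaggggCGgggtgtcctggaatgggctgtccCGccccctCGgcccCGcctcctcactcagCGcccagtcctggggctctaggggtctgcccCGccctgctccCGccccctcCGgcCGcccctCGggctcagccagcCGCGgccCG
The base composition of these sequences differed, with a GC content of 50% upstream of Sox4 and 72.0% upstream of Smtnl2. Over the whole windows, Smtnl2 had 22 CG, Nsmce4a 15, Sox4 12 and Jund 3, beside a median of 7 over 32851 windows, and the windows of Jund and Nsmce4a lie 1210 and 25737 bases from the start used for counting. The letters of the AP-1 site, TGANTCA on either strand, occurred in none of the 4 windows and in 7.81% of all windows, and those of the cAMP response element, TGACGTCA, also occurred in none and in 1.79% of all. The Sox4 window held 4 matches to CCAAT or its complement and the Nsmce4a window 1, against at least 1 match in 37.4% of all windows. The Smtnl2 window held 5 matches to GGGCGG or its complement, found in 35.7% of all windows, and these letters did not occur in the other 3 windows. Methylation was not measured in these libraries.

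The 12 libraries held 34805086 to 67251544 counts each. Tet1, the targeted gene, had 16.1 ± 1.93 CPM in unlesioned control and 12.8 ± 3.28 CPM in unlesioned mutant libraries (SD, n = 3 each), and 12.1 ± 0.39 and 15.2 ± 5.55 CPM at 4dpl. Only exon 4 of Tet1 is floxed and its counts are summed over the whole gene, so they do not check the deletion, and the genotypes below are those of the labels. The myelin gene Mbp was abundant in every group, at group means of 3913 to 10215 CPM. Markers of blood cells were abundant as well, since 8 neutrophil markers summed to 19076 to 106335 CPM and 6 erythroid markers to 12128 to 100053 CPM over the libraries, against 14955 to 71721 CPM for 12 oligodendrocyte markers. Of the mutant 4dpl libraries, replicate 3 stood apart with an oligodendrocyte sum of 71721 CPM beside 26778 and 30175 CPM, and replicate 2 with a neutrophil sum of 95783 CPM beside 19076 and 29373 CPM. For this reason the differences of the 5 genes that rest on the mutant 4dpl libraries are also given without replicate 3.

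Jund was the gene with the smallest p-value at 4dpl and had the widest range of the 5 genes. Its level in the unlesioned control libraries was 81.0, 69.4 and 45.7 CPM, and in the control 4dpl libraries it was 10.6, 19.0 and 19.1 CPM. In the unlesioned mutant libraries it was 55.2, 70.0 and 56.9 CPM, and in the mutant 4dpl libraries 52.7, 61.0 and 116 CPM. The control 4dpl group lay below the other 3 groups without overlap, and those 3 groups overlapped one another. Group means were 65.4 ± 18, 16.2 ± 4.85, 60.7 ± 8.11 and 76.7 ± 34.7 CPM in the same order (SD, n = 3 each). The highest library, mutant 4dpl replicate 3, held 11 times the level of the lowest, control 4dpl replicate 1.

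Sox4 was also lowest in the control 4dpl libraries, at a lower level. It had 15.0, 15.3 and 15.4 CPM in unlesioned control libraries, the tightest group of any of the 5 genes, and 4.46, 4.87 and 6.20 CPM in control 4dpl libraries. In unlesioned mutant libraries it had 13.1, 20.4 and 15.1 CPM, and at 4dpl 15.6, 14.3 and 34.1 CPM. Again the control 4dpl libraries lay below all others, and among the other 3 groups the mutant 4dpl libraries ranged from just under the control unlesioned level to more than all other libraries. Group means were 15.2 ± 0.221, 5.18 ± 0.907, 16.2 ± 3.79 and 21.3 ± 11.1 CPM (SD, n = 3 each).

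Psip1 varied less. The LEDGF gene had 55.7, 50.8 and 45.0 CPM in unlesioned control libraries and 24.1, 23.6 and 30.4 CPM in control 4dpl libraries. In unlesioned mutant libraries it had 59.6, 48.6 and 48.6 CPM, and in mutant 4dpl libraries 54.2, 61.0 and 88.1 CPM. Control 4dpl libraries were the lowest 3 of the 12, and the remaining groups overlapped. Group means were 50.5 ± 5.31, 26.0 ± 3.76, 52.3 ± 6.39 and 67.8 ± 17.9 CPM (SD, n = 3 each), and the ratio of the highest to the lowest library was 3.73.

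Smtnl2 was the gene whose mutant 4dpl group stood apart. It had 10.9, 6.18 and 8.64 CPM in unlesioned control and 5.19, 4.99 and 5.99 CPM in control 4dpl libraries. In unlesioned mutant libraries it had 10.3, 5.49 and 7.72 CPM, and in mutant 4dpl libraries 16.2, 14.0 and 28.9 CPM. The mutant 4dpl libraries stood above all 9 others, and the control 4dpl libraries overlapped the unlesioned mutant ones. Group means were 8.56 ± 2.35, 5.39 ± 0.526, 7.85 ± 2.41 and 19.7 ± 8.06 CPM (SD, n = 3 each).

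Nsmce4a had levels near those of Psip1. The SMC5/6 subunit gene had 68.4, 51.7 and 39.3 CPM in unlesioned control libraries and 21.1, 24.6 and 23.9 CPM in control 4dpl libraries. In unlesioned mutant libraries it had 41.7, 55.0 and 42.8 CPM, and in mutant 4dpl libraries 45.7, 63.4 and 68.6 CPM. The control 4dpl libraries were again the lowest 3 of the 12 and the other groups overlapped. Group means were 53.1 ± 14.6, 23.2 ± 1.86, 46.5 ± 7.41 and 59.2 ± 12 CPM (SD, n = 3 each). The lowest raw count behind any of these values was 255, for Sox4 in a control 4dpl library.

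**Figure D1:**
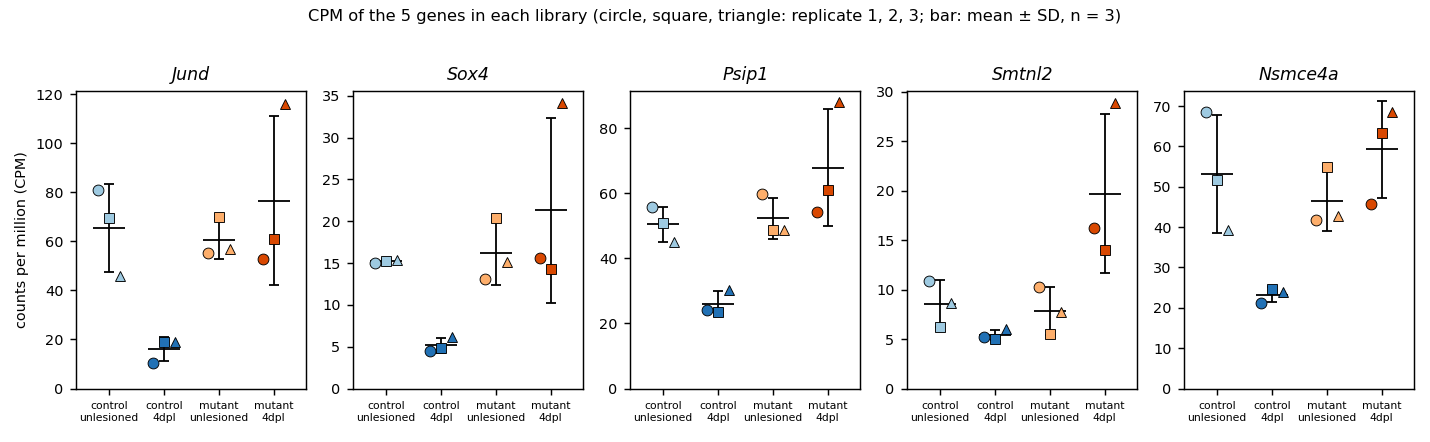
CPM (y axis, linear from 0, a scale for each gene) of the 5 genes in the 3 libraries of each group (x axis), with symbols for the replicate number and bars for the mean ± SD. In each panel the triangle of mutant 4dpl replicate 3 is the highest point, and in all panels but that of Smtnl2 the control 4dpl libraries lie below every other library.

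On a scale of CPM per kilobase, which allows levels of different genes to be compared, Jund was at 39.2 ± 10.8 in unlesioned control libraries, and Sox4 at 3.17 ± 0.046 and Smtnl2 at 2.25 ± 0.615 were the lowest over all annotated exons (SD, n = 3 each). For Nsmce4a and Psip1 the level depended on the length used. Per kilobase of all annotated exons they were at 10.5 ± 2.90 and 9.94 ± 1.05, and per kilobase of the longest protein-coding transcript, 1435 and 3251 bases, at 37.0 ± 10.2 and 15.5 ± 1.63. The order of Jund, Nsmce4a and Psip1 is therefore not settled by these values, and the lengths include the bases shared with other genes.

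In unlesioned tissue no difference between the genotypes was called in any of the 5 genes. The question was whether the 5 genes also differed on the side of the cord opposite the lesion, and the libraries of both genotypes overlapped for each gene. Tissue from before the lesion was not sampled, so this comparison does not show the state before it. The log2 difference of mutant from control was -0.11 for Jund (95% interval -0.80 to 0.59), 0.09 for Sox4 (-0.58 to 0.76) and 0.05 for Psip1 (-0.43 to 0.53). It was -0.13 for Smtnl2 (-0.83 to 0.57) and -0.19 for Nsmce4a (-0.71 to 0.32). A gene was called where p was under 0.01 and the adjusted p under 0.05 in the quasi-likelihood test of edgeR, adjusted over all genes tested by the method of Benjamini and Hochberg. By this rule 0 of the 5 genes and 0 of 31109 genes (0%) were called in either direction, and 0 of the 5 but 1624 of all genes had an unadjusted p under 0.05. DESeq2 on all 12 libraries called 32 genes and limma with voom 0, and neither called any of the 5 genes. None of the 5 genes had all mutant libraries on one side of all control libraries, which 10.4% of the genes tested had. A p above the threshold does not show that the genotypes were alike, and the intervals give the differences that these libraries allow.

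At 4dpl all 5 genes were higher in the mutant, which is what chose them. The log2 difference was 2.24 (SE 0.34) for Jund, a fold of 4.73, 2.04 (SE 0.33) for Sox4, a fold of 4.12, and 1.87 (SE 0.34) for Smtnl2, a fold of 3.65. Psip1 differed by 1.38 (SE 0.23), a fold of 2.61, and Nsmce4a by 1.35 (SE 0.24), a fold of 2.55. In each of the 5 genes all 3 mutant libraries lay above all 3 control libraries, as in 7.34% of the genes tested, and the lowest mutant library held from 1.79 times (Psip1) to 2.76 times (Jund) the level of the highest control library. By the same edgeR rule 0 genes (0%) were called at this time point, with 2153 genes at an unadjusted p under 0.05. The adjusted p of 0.185 that each of the 5 genes had is a value the choice used, and nothing is read from it. Of all genes, DESeq2 on all 12 libraries called 218, limma with voom and sample weights 34 and limma with voom alone 0.

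Library by library, the mutant values at 4dpl were uneven. Mutant replicate 3 was the highest of all 12 libraries for each of the 5 genes, and held 2.05 times the mean of the other pair of mutant 4dpl libraries for Jund, 2.29 times for Sox4, 1.92 times for Smtnl2, 1.53 times for Psip1 and 1.26 times for Nsmce4a. Without it, the log2 difference from control was 1.81 for Jund, 1.53 for Sox4, 1.48 for Smtnl2, 1.15 for Psip1 and 1.23 for Nsmce4a. The same library had the highest summed oligodendrocyte markers, 391 CPM of Sox10 beside 159 and 157 CPM, and 623 CPM of Olig1 beside 192 and 233 CPM in the other mutant 4dpl libraries, and their part in the 5 genes' levels was not tested. The mean of mutant replicates 1 and 2 was 3.50 times the control 4dpl mean for Jund, 2.88 times for Sox4, 2.80 times for Smtnl2, 2.35 times for Nsmce4a and 2.22 times for Psip1.

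**Figure D2:**
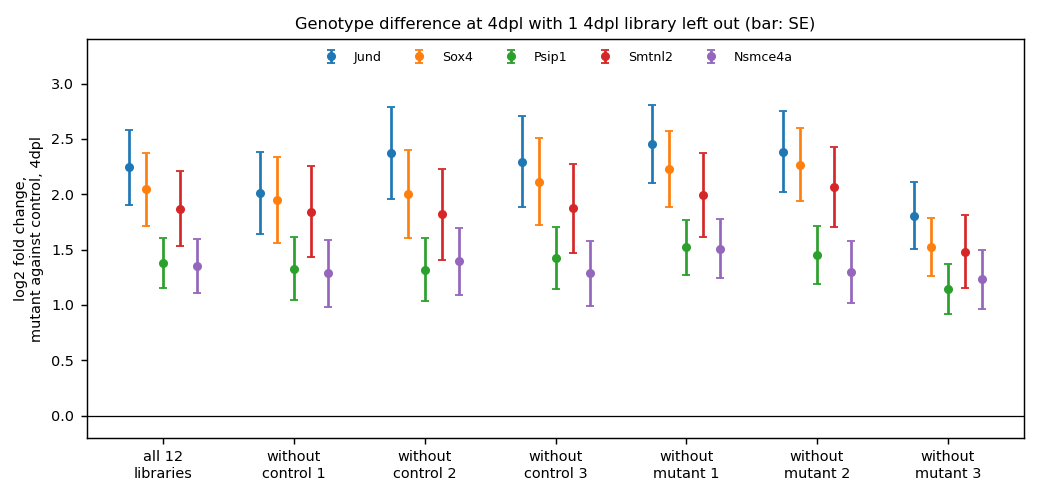
Log2 fold change between mutant and control at 4dpl (y axis) of the 5 genes with all 12 libraries and with each 4dpl library left out in turn (x axis), with bars for the standard error. All values lie above 0, between 1.15 and 2.45, and leaving out mutant replicate 3 gives the lowest value of each gene.

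Just outside the choice, ranks 6, 7, 9 and 10 by p at 4dpl were held by Klhdc2, Abhd17b, Timp2 and Fgfbp3. Their log2 differences were 1.28, 1.94, 1.44 and 2.05, and their p-values ran from 7.42e-05 to 0.000104 in edgeR, beside 6.95e-05 for Nsmce4a at rank 5. The p of Klhdc2 at rank 6 was 7.42e-05, close to that of Nsmce4a at rank 5. These 4 genes had the same adjusted p of 0.185 as the 5 genes, and nothing is read from that tie. In unlesioned tissue their log2 differences lay between -0.09 and 0.40.

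In control mice, all 5 genes were lower at 4dpl than in unlesioned tissue, and 4 of the 5 were called. Jund fell by 2.01 on the log2 scale (SE 0.34, adjusted p = 0.0214 in edgeR's test), Sox4 fell by 1.56 (SE 0.32, adjusted p = 0.0262), Nsmce4a fell by 1.20 (SE 0.24, adjusted p = 0.0256) and Psip1 fell by 0.96 (SE 0.23, adjusted p = 0.0316). Smtnl2 was at -0.67 (SE 0.33, adjusted p = 0.165) and was not called. Of all genes tested 5.01% were called lower in this comparison, and 21.4% had all control 4dpl libraries below all control unlesioned libraries, as all 5 genes did. The control 4dpl libraries also entered the choice of the 5 genes, where low values in them counted, so nothing is read from these counts. The median of all genes tested was -0.36, and -0.42 over the same genes with size factors by DESeq2's method. It was -0.84 over the 50954 genes fitted by DESeq2 on all 12 libraries. Over 17528 genes with at least 10 counts in every library it was -0.05. Without control unlesioned replicate 2, control 4dpl replicate 1 or control 4dpl replicate 2, 0 of the 5 genes were called (edgeR, adjusted p of 0.0761 to 0.112 for the 4 genes), and the genes called among all those tested numbered 1, 4 and 2 in place of 3150. Without control unlesioned replicate 3, Jund and Nsmce4a were called and Sox4 and Psip1 were not. The summed neutrophil markers were also lower at 4dpl in the control, at 42740 to 92100 CPM unlesioned and 25914 to 31732 CPM at 4dpl. The 6 erythroid markers had a median log2 change of -1.31 in the control and 0.31 in the mutant, beside -1.43 and -0.48 for the 8 neutrophil markers. Mutant 4dpl replicates 2 and 3 had neutrophil sums of 95783 and 29373 CPM, and 61.0 and 116 CPM of Jund. The part of these markers in the result was not tested.

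In the mutant, none of the 5 genes was called between 4dpl and unlesioned tissue. The log2 difference was 0.34 for Jund (95% interval -0.36 to 1.03), 0.40 for Sox4 (-0.28 to 1.07), 0.37 for Psip1 (-0.10 to 0.85) and 0.35 for Nsmce4a (-0.16 to 0.86). Smtnl2 was at 1.33 (0.62 to 2.04) with an adjusted p of 0.0544 in edgeR's test, just outside the threshold, and was the only one of the 5 with all mutant 4dpl libraries above all mutant unlesioned ones, as 18.8% of the genes tested had. Of all genes tested 0.0225% were called higher. DESeq2 on all 12 libraries (adjusted p = 0.00932) and limma with voom (adjusted p = 0.0493) each called Smtnl2 and none of the other 4. Without mutant 4dpl replicate 3 the difference was -0.07 for Jund, -0.09 for Sox4, 0.97 for Smtnl2, 0.16 for Psip1 and 0.25 for Nsmce4a. With size factors by DESeq2's method the median of all genes moved from -0.18 to -0.32. It was -0.84 in the DESeq2 fit on all 12 libraries and 0.06 with at least 10 counts in every library. With the trend over GC content removed, a setting added after seeing the data, Jund was at -0.095, Sox4 at -0.049 and Nsmce4a at -0.073. The mutant 4dpl libraries entered the choice as well.

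The change after the lesion was then compared between the genotypes in one fit. The mutant change exceeded the control change by 2.35 for Jund (SE 0.47), 2.0 for Smtnl2 (SE 0.47), 1.95 for Sox4 (SE 0.45), 1.54 for Nsmce4a (SE 0.34) and 1.33 for Psip1 (SE 0.32) on the log2 scale. Without mutant 4dpl replicate 3 these values were 1.92, 1.61, 1.44, 1.43 and 1.10. By p, with all 12 libraries, they held ranks 1, 10, 8, 4 and 14 of all genes, and this contrast contains the 4dpl difference that chose them. None was called, as 0 of all genes (0%) were, with an adjusted p of 1 for each in edgeR's test, and 1184 genes had an unadjusted p under 0.05. DESeq2 on all 12 libraries and limma with voom also called 0 genes.

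**Figure D3:**
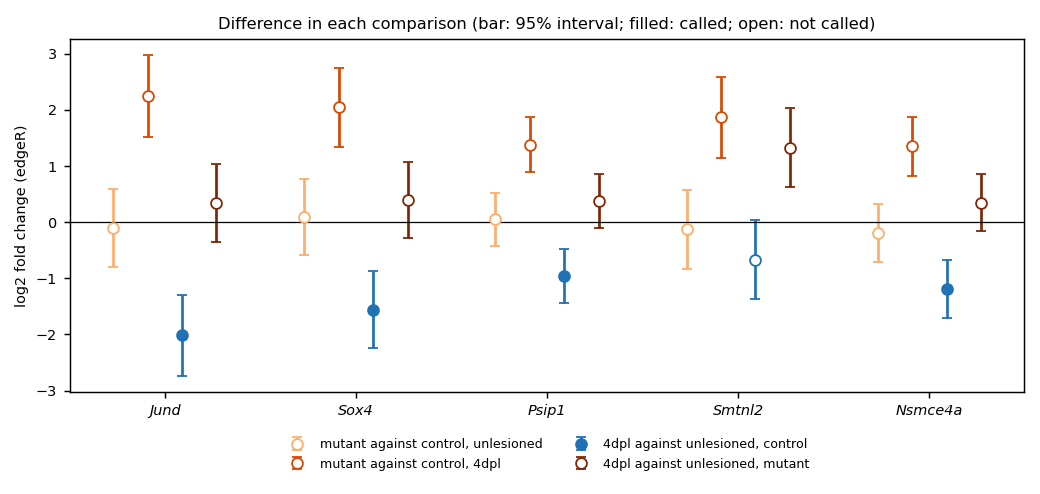
Log2 fold change (y axis) of the 5 genes (x axis) in 4 comparisons, with bars for the 95% interval, filled points for called values and open points for values not called. The unlesioned genotype differences lie between -0.19 and 0.09, the control lesion changes are below 0 and the mutant lesion changes are at 0.34 or above (just under 0 for Jund, Sox4 and Nsmce4a with the GC trend removed), and the 4dpl genotype difference chose the genes.

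The 5 profiles over the 12 libraries were most alike in Psip1 and Nsmce4a. Likeness was measured as the root mean square (RMS) difference of log2 CPM after each gene was centred on its own mean, and was 0.23 between these genes. Jund and Sox4 were also close at 0.30, while Jund and Smtnl2 were the farthest apart at 0.74. The standard deviation over the 12 libraries was 0.97 for Jund, 0.82 for Sox4, 0.74 for Smtnl2, 0.57 for Nsmce4a and 0.54 for Psip1, beside a median of 0.70 over all genes tested.

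Among all genes tested, the profiles closest to Jund were those of Dexi (0.28), Sox4 (0.30) and Mocs3 (0.30), in RMS log2 difference over 12 libraries. Those closest to Sox4 were Fgfbp3 (0.24), Dexi (0.28) and Mtch1 (0.29). Dexi had group means of 9.15 CPM in unlesioned control, 3.21 in control 4dpl, 9.04 in unlesioned mutant and 12.7 in mutant 4dpl libraries. For Psip1 they were Klhdc2 (0.18), Ttc19 (0.19) and Ctnnbip1 (0.19), and for Nsmce4a Fbxo31 (0.15), Taf10 (0.16), a subunit of the transcription factor TFIID, and Paxbp1 (0.18). Smtnl2 was most like Rgmb (0.21), a co-receptor of bone morphogenetic proteins, Ptpra (0.27), a receptor-type tyrosine phosphatase, and Wasf1 (0.27), a regulator of actin assembly. These neighbours share libraries, depth and the outlying mutant replicate 3 with the 5 genes, and no test was made of them.

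Of the AP-1 relatives Jun, Junb and Fos, none was called in any comparison. Jun was at 1044, 916 and 1053 CPM in unlesioned control and 912, 1431 and 1139 CPM in control 4dpl libraries. In the mutant it was at 1215, 914 and 891 CPM unlesioned and at 1267, 1102 and 1586 CPM at 4dpl, so that the mutant 4dpl libraries lay above the unlesioned control ones and every other pair of groups overlapped. At 4dpl the log2 difference between genotypes was 0.18 (SE 0.28) for Jun, -0.10 (SE 0.29) for Junb and 0.09 (SE 0.29) for Fos, and none was called. Per kilobase of exon, Jun at 315 ± 24.0, Junb at 630 ± 157 and Fos at 957 ± 212 CPM were far above Jund in unlesioned control libraries (SD, n = 3 each). Of the other 18 AP-1 genes listed, 0 were called between genotypes in either tissue, with a median log2 difference of -0.13 unlesioned and 0.10 at 4dpl beside 0.02 and 0.05 over all genes. After the lesion in the control, 1 of the 18 was called, Atf2, an ATF partner of JUN proteins, which rose by 0.98 (SE 0.22, adjusted p = 0.0284 in edgeR's test), beside 5.12% of all genes called higher. After the lesion the 18 had a median of 0.28 in control and 0.42 in mutant mice, beside -0.36 and -0.18 over all genes, and 0 were called in the mutant. With at least 10 counts in every library, the medians over all genes were -0.05 and 0.06.

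JNK, ERK and p38 kinases, which act upstream of AP-1, and genes induced by tissue dissociation were also examined because of the JUN family. Of 8 kinases, 0 were called in any comparison, with median log2 differences of 0.20 unlesioned and 0.19 at 4dpl between genotypes and of 0.37 and 0.40 after the lesion in control and mutant. Of 19 dissociation genes, several of them AP-1 subunits, 0 were called between genotypes, with medians of -0.07 unlesioned and -0.02 at 4dpl. After the lesion their medians were 0.40 in control and 0.39 in mutant mice. Of the 19, 1 was called, Klf2, which fell by 1.60 in the control (SE 0.36, adjusted p = 0.0293 in edgeR's test), beside 5.01% of all genes called lower.

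The SoxC relatives of Sox4 had low levels. Sox11 was at 1.79 ± 0.352 CPM and Sox12 at 2.18 ± 0.286 CPM in unlesioned control libraries, and at 1.16 ± 0.772 and 0.786 ± 0.289 CPM in control 4dpl libraries (SD, n = 3 each). Sox12 in the mutant 4dpl libraries was at 0.887, 1.37 and 7.95 CPM, with the highest value again in replicate 3, and its 4dpl log2 difference was 2.12 (SE 0.66, adjusted p = 0.402 in edgeR's test). Sox11 at 2.86, 1.88 and 2.57 CPM in mutant 4dpl against 0.49, 0.988 and 2.0 CPM in control 4dpl libraries overlapped between genotypes. Sox10, which marks the oligodendrocyte lineage, and Sox9, which marks astrocytes and progenitors, had 4dpl log2 differences of 0.52 (SE 0.41) and 0.75 (SE 0.64). Of the other 16 SOX genes tested, 0 were called in any comparison, and 14 lay above 0 at 4dpl with a median of 0.74 beside 0.05 over all genes. Without mutant 4dpl replicate 3, 10 of the 16 lay above 0 and their median was 0.41, beside 0.03 over all genes. In unlesioned tissue their median was 0.17, and after the lesion -0.61 in the control and -0.18 in the mutant.

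Of the 3 HDGF relatives of LEDGF that were tested, Hdgfl3 had the largest difference at 4dpl. It had 14.1, 15.1 and 15.1 CPM in unlesioned control and 6.28, 9.22 and 8.82 CPM in control 4dpl libraries. In the mutant it had 17.3, 13.6 and 15.2 CPM unlesioned and 13.1, 16.2 and 34.2 CPM at 4dpl, so the control 4dpl libraries were its lowest 3. Its 4dpl log2 difference was 1.39 (SE 0.32, adjusted p = 0.224) and its lesion change in the control -0.86 (SE 0.32, adjusted p = 0.0813), neither called in edgeR's test. Hdgf at 0.24 (SE 0.35) and Hdgfl2 at 0.08 (SE 0.20) were not called at 4dpl either, and the 3 tested relatives had medians of 0.06 unlesioned, 0.24 at 4dpl, -0.01 for the lesion in the control and 0.46 in the mutant.

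No difference between the genotypes was called in the partners of LEDGF and JunD in the menin and MLL complex. Men1 had 40.8 ± 4.81 CPM in control and 39.0 ± 4.02 CPM in mutant 4dpl libraries, and Kmt2a had 45.7 ± 7.97 and 43.8 ± 2.59 CPM (SD, n = 3 each). Their log2 differences were both -0.06 (SE 0.25 for Men1 and 0.21 for Kmt2a). Of 13 partners listed, 0 were called in any comparison, with medians of -0.16 unlesioned, -0.06 at 4dpl, 0.19 for the lesion in the control and 0.34 in the mutant.

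No difference between the genotypes was called in the 8 other SMC5/6 genes. In control and mutant 4dpl libraries Smc5 had 33.3 ± 1.29 and 34.0 ± 5.99 CPM, Smc6 62.7 ± 3.30 and 64.9 ± 7.41 CPM and Nsmce1 42.0 ± 1.83 and 42.0 ± 2.49 CPM (SD, n = 3 each). Nsmce2 and Nsmce3 had 4dpl log2 differences of -0.05 (SE 0.19) and 0.11 (SE 0.22). Of these 8 genes, 0 were called in either tissue, with medians of -0.18 unlesioned and 0.04 at 4dpl. After the lesion in the control, 1 of the 8 was called, Slf2, which rose by 1.0 (SE 0.28, adjusted p = 0.0437 in edgeR's test), beside 5.12% of all genes called higher, and the medians were 0.25 in the control and 0.54 in the mutant. Of 13 cohesin and condensin genes, the sister complexes, 0 were called in any comparison, with medians of -0.03, 0.06, 0.17 and 0.37 in the same order.

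No smooth muscle gene examined beside Smtnl2 was called in any comparison. Smtn, which encodes smoothelin, was at 14.8 ± 1.46 CPM in control and 16.9 ± 2.46 CPM in mutant 4dpl libraries (SD, n = 3 each), a log2 difference of 0.20 (SE 0.23) that was not called. Smtnl1 was too low to be tested, at group means of 0.0307 to 0.22 CPM. Of 9 contractile genes 0 were called in any comparison, with medians of 0.31 unlesioned, 0.19 at 4dpl, -0.12 for the lesion in the control and -0.15 in the mutant. Of the defining markers, Acta2 had group means of 8.90 to 10.4 CPM and Myh11 of 0.62 to 2.72 CPM, beside 19.7 CPM of Smtnl2 in the mutant 4dpl libraries.

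**Figure D4:**
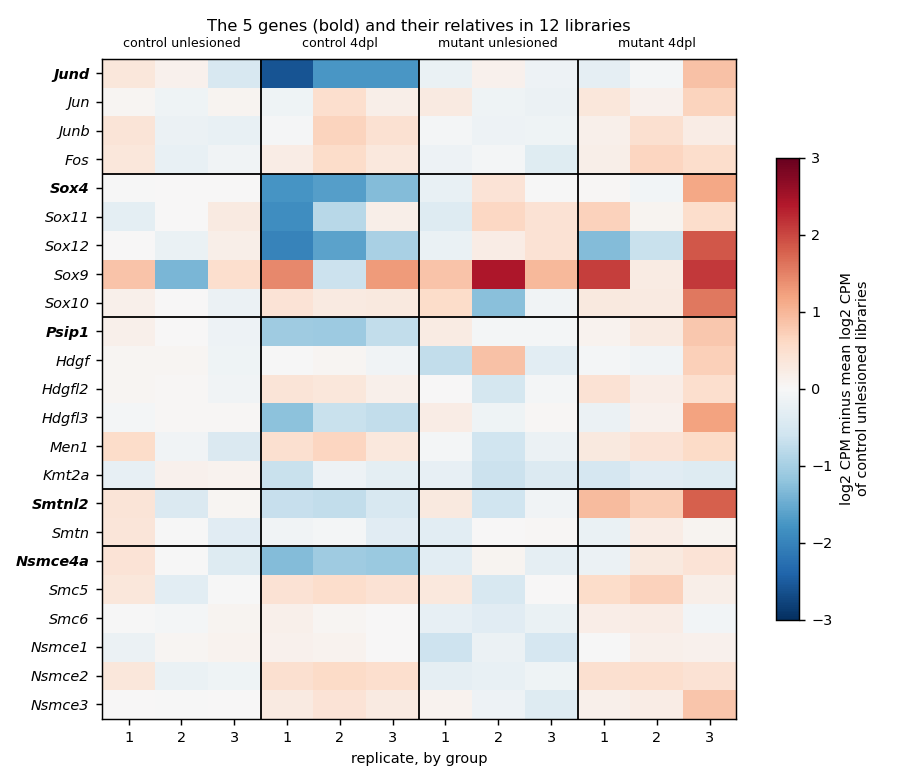
Log2 CPM of the 5 genes (bold) and of their relatives (rows, grouped by family) in the 12 libraries (columns, grouped), relative to the mean of the unlesioned control libraries (colour scale, log2). The 5 genes and Sox12, Hdgfl3, Kmt2a and Smtn are lower, and Fos, Smc5 and Nsmce2 are among the relatives that are higher, than that mean in each control 4dpl column, and mutant 4dpl replicate 3 is the highest column for Sox10, Sox12 and Hdgfl3.

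Marker genes of the cell types that the preparation could hold give the setting of these values. Between genotypes 0 markers of any of 15 lists were called, in unlesioned tissue or at 4dpl. The medians at 4dpl were 0.68 for 12 oligodendrocyte, -0.10 for 12 progenitor, 0.05 for 10 astrocyte, 0.00 for 10 microglial, 0.44 for 13 neuronal, 0.79 for 8 neutrophil and -0.76 for 6 fibroblast markers, beside 0.05 over all genes. They were -0.60 for 10 macrophage, -0.09 for 8 endothelial, 0.22 for 9 mural, 0.31 for 6 Schwann cell, 0.61 for 6 ependymal, -0.02 for 9 T and B cell, 0.31 for 6 erythroid and -0.15 for 10 cell cycle genes. Without mutant 4dpl replicate 3 the medians were 0.15 for the oligodendrocyte, -0.06 for the neuronal, 1.04 for the neutrophil and -1.04 for the fibroblast markers. After the lesion in the control, 5 of 12 progenitor, 4 of 10 microglial, 3 of 10 macrophage, 3 of 6 fibroblast, 2 of 10 astrocyte and 1 of 12 oligodendrocyte markers were called higher, and 1 of 10 macrophage markers was called lower, beside 5.12% of all genes called higher and 5.01% called lower. Pdgfra, the receptor that marks progenitors, rose by 1.70 (SE 0.34), Gfap, the astrocyte filament, by 2.07 (SE 0.35) and Col1a1, a fibroblast collagen, by 2.54 (SE 0.43), with adjusted p-values of 0.0256, 0.0214 and 0.0219 in edgeR's test. In the mutant 0 markers were called after the lesion. The part of these markers in the levels of the 5 genes was not tested.

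The marker sums ran over wide ranges in some groups. The 12 oligodendrocyte markers summed to 17159 to 21568 CPM in unlesioned control, 24508 to 35457 CPM in control 4dpl, 14955 to 29700 CPM in unlesioned mutant and 26778 to 71721 CPM in mutant 4dpl libraries. The 8 neutrophil markers summed to 42740 to 92100, 25914 to 31732, 26315 to 106335 and 19076 to 95783 CPM in the same groups.

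**Figure D5:**
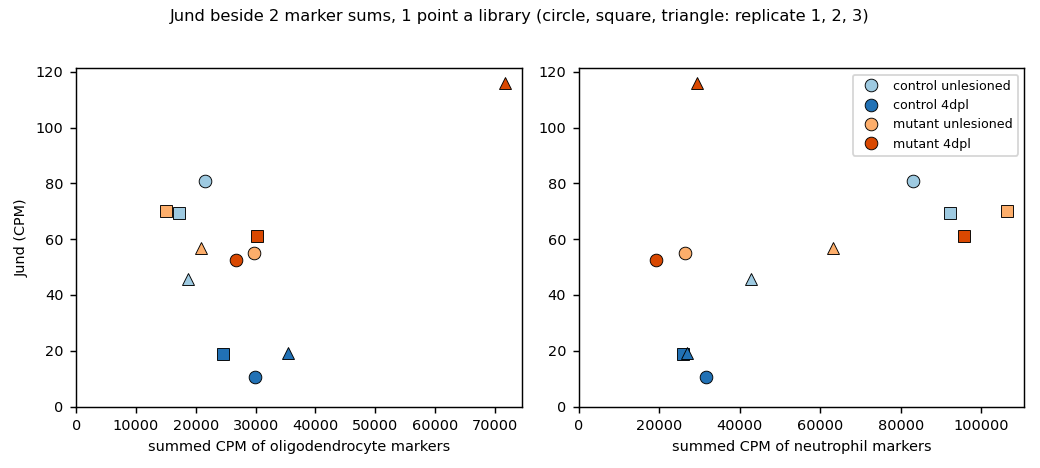
Jund in CPM (y axis) against the summed CPM of 12 oligodendrocyte markers (left) and of 8 neutrophil markers (right) in each of the 12 libraries, coloured by group. Mutant 4dpl replicate 3 is alone at an oligodendrocyte sum of 71721 CPM and 116 CPM of Jund, and the control 4dpl libraries lie at or below 19.1 CPM of Jund.

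GC content was examined because Jund, at 67.1% over its transcript, ranks above 99.8% of the genes tested. Sox4 (51.1%), Psip1 (42.5%), Smtnl2 (53.3%) and Nsmce4a (51.0%) were nearer to the median of 47.9%. The median genotype difference at 4dpl was 0.05 in the 3110 genes with the highest GC content and 0.14 in the 3110 with the lowest. With the trend over GC removed within each library, Jund had a 4dpl difference of 1.60 (SE 0.23) in place of 2.24, and Sox4 had 1.97, Smtnl2 1.82, Psip1 1.29 and Nsmce4a 1.30. After the lesion in the control these sets had medians of -0.05 and -1.39, and Jund was at -1.56 in place of -2.01 with the trend removed.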

How the data were processed

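Raw counts were made by the authors, who counted uniquely aligned reads over exons of the Ensembl GRCm38 annotation with featureCounts and deposited 1 table of counts per library. The aligner is BWA in the study's methods and STAR in the submitters' processing notes, and whether reads were counted by strand is not given in the sources used here. Libraries were paired-end and held 34805086 to 67251544 counts. Symbols were matched by Ensembl identifier for 54723 of 54838 genes.

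Genes with low counts were removed by filterByExpr in edgeR 4.0.16 (R 4.3.3), counts were scaled by TMM, and quasi-likelihood tests were fitted to all 12 libraries with a mean for each group. A gene was called at p under 0.01 and a Benjamini-Hochberg adjusted p under 0.05, the thresholds of the study. CPM used TMM library sizes, and likeness used log2 CPM with a prior count of 2. DESeq2 1.42.0 and limma 3.58.1 were alternatives. In simulated data with 29203 genes, the fit recovered 91% of 200 genes changed at 4dpl, with 7 false calls. It recovered 93% for the lesion in the control, with 9 false calls, and 76% for the difference of the changes, with 2. Recovery at the observed sizes of difference was not tested. No correction was made for mouse, sex or blood RNA, which the labels do not give per library.

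The members and all lists were chosen with earlier results of these data known. Genes named in the text were the 5 members, ranks 6 to 10 at 4dpl (1 of them is not reported here), the 3 genes most alike to each member, fixed relatives of the members, Tet1 and Olig1, up to 3 called genes of each list by p, defining markers of the cell type lists, and the genes whose bases overlap a member.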

Additional observations from a re-analysis of the deposited data

How the results depend on the processing

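The 5 genes kept their direction at 4dpl, in the control after the lesion and in the difference of the changes in each of the 10 other settings that could be fitted and in all 12 fits with a library left out. At 4dpl the differences stayed within 1.15 to 2.45 with a library left out, and with DESeq2 or limma with sample weights 5 of the 5 genes were called, without a filter 2 of 5, and without control unlesioned replicate 1 5 of 5, so the range with a library left out was 0 to 5. This is the difference that chose the genes, so these directions and calls follow from the choice and support nothing. All genes called at 4dpl numbered 218 with DESeq2 on all 12 libraries, 573 with DESeq2 on the groups compared, 34 with limma and sample weights, 4 without a filter and 0 to 48 with a library left out. In unlesioned tissue they numbered 32 and 13 with the DESeq2 fits, 9 without a filter and 0 to 1 with a library left out. For the lesion in the control, 0 to 4 of the 5 genes were called with a library left out. Psip1 was not called without a filter, where 3 of 5 were (edgeR, adjusted p = 0.0566), or without mutant unlesioned replicate 3 (edgeR, adjusted p = 0.0532), and with the GC trend removed Smtnl2 was called too, at -0.96 (edgeR, adjusted p = 0.0454). In that comparison all genes called numbered 7438 and 5696 with the DESeq2 fits, 1162 with edgeR on the groups compared, 1295 with at least 10 counts in every library, 9663 with limma and sample weights and 1 to 7401 with a library left out. For the lesion in the mutant, 1 of the 5 genes, Smtnl2, was called with both DESeq2 fits, both limma fits and no filter, and 0 to 1 with a library left out. All genes called there numbered 5311 and 5078 with the DESeq2 fits, 947 without a filter, 772 with edgeR fitted to those groups alone, 887 and 6800 with the limma fits, 361 with the GC trend removed and 0 to 4498 with a library left out. The cause of these shifts was not tested.

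Small differences changed sign. Unlesioned, Jund was at 0.13 and Psip1 at -0.092 with the GC trend removed, an alternative chosen after seeing the data, and Smtnl2 at 0.077 with limma and sample weights. With a library left out the unlesioned differences ran from -0.31 to 0.078 for Jund, -0.11 to 0.21 for Sox4, -0.066 to 0.13 for Psip1, -0.39 to 0.086 for Smtnl2 and -0.37 to 0.032 for Nsmce4a. For the lesion in the mutant, Jund was at -0.095, Sox4 at -0.049 and Nsmce4a at -0.073 with the GC trend removed, and Jund ran from -0.070 to 0.58 and Sox4 from -0.095 to 0.64 with a library left out.

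A fit with the replicate number as a replicate block called 0 genes for the lesion in the mutant in place of 42 and changed no call of the 5 genes. Deviations from the group means of same-numbered libraries had correlations over genes of 0.05 to 0.19 in the control and -0.07 to 0.07 in the mutant, and the labels do not say whether the numbers mark a shared mouse or batch. The unlesioned tissue came from the other side of lesioned cords and the study's sample table numbers some libraries otherwise. The block may therefore not stand for the mice, and whether a lesioned and an unlesioned library share a mouse is not known. Every library correlated best with its own number in the control but not in the mutant. A count of 255 or more stood behind each value of the 5 genes.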
